A study of Mustela putorius furo and Mus musculus with 4 samples.

Results

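Genes that are abundant in ferret astrocytes and drop out when ferret and mouse values are joined by gene symbol are described here. A ferret row was taken when its symbol, compared without regard to case, was absent from the mouse values and its mean over the 2 ferret libraries was at least 10 FPKM, where FPKM is the number of fragments on a gene divided by its exon length and by the total mapped in its library. The rule was met by 197 of 16853 ferret rows, which carried 196 symbols because the name Y_RNA occurred in 2 of these rows. The genes were thus selected on their ferret FPKM in both libraries, so ferret levels and ferret minus mouse differences are descriptions.

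Primary astrocytes were cultured from the cerebral cortex of ferrets at postnatal day 1 and of ICR mice at postnatal day 1 to 3, with 2 RNA-seq libraries for each species. Neither group carried an engineered allele or received a drug. To set the cell density, the glia of a single ferret pup were spread over several flasks, whereas the cortices of several mouse pups were pooled in 1 flask, so the number of animals behind a library may differ between the species. Both groups were grown as mixed glia for 14 days in medium with 10% fetal bovine serum, shaken to remove loosely attached cells and replated. Serum was taken away on day 3 after replating and RNA was harvested on day 7, after 4 days in serum-free medium that held heparin-binding EGF-like growth factor. The sources do not state whether the 2 libraries of a species came from separate cultures, so the spread between them may be technical. Each species was quantified on its own genome and its own gene models, so species, gene models and culture differed together and cannot be told apart.

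The astrocyte label was checked with markers. The summed FPKM of 11 astrocyte markers reached 4762 and 4947 in ferret and 7401 and 7911 in mouse, and 10 of the 11 reached 1 FPKM in ferret and all 11 in mouse. The exception in ferret was SLC1A2, a glutamate transporter of mature astrocytes, with 0.133 and 0.178 FPKM. Microglial markers summed to 3.47 and 3.09 FPKM in ferret (9 of 10 markers had a ferret row, 1 of these reached 1 FPKM and CX3CR1 was listed at 0 in both libraries) and to 790 and 765 FPKM in mouse, or 597 and 572 FPKM over the 9 with a row in both species. Markers of the oligodendrocyte lineage summed to 169 and 188 FPKM in ferret and to 69.0 and 69.0 FPKM in mouse, while fibroblast and vascular markers summed to 126 and 111 FPKM against 853 and 809 FPKM. The 5 neuronal markers with a row in both species summed to similar levels, 29.1 and 30.4 FPKM in ferret and 32.0 and 33.2 FPKM in mouse, with 3 of them higher and 2 lower in both ferret libraries, while STMN2, without a ferret row, had 124 and 127 FPKM in mouse. What these differences in marker levels contribute to the values below was not tested. In RNA of whole cultures, fewer cells of a type and less RNA per cell cannot be told apart.

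Gene symbols are names given by separate committees. The mouse committee writes Zfp for zinc fingers that carry ZNF in other mammals, keeps clone names such as those ending in Rik where other species use a numbered open reading frame, and gives separate names to the copies of a gene that was duplicated in the mouse lineage. Ferret gene names are mostly carried over from human orthologs. A renaming in human can therefore reach the ferret annotation before, or without, reaching the mouse annotation of the same release. None of this concerns what the gene does, and many of the genes affected are enzymes and structural proteins that every cell uses.

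Of all ferret rows, 3420 (20.3%) had no mouse symbol match, and 2431 of these were listed at 0 in both libraries. The share without a match depended on the level. It was 68.3% among rows listed at 0 (2431 of 3559), 9.36% among rows above 0 and under 1 FPKM (324 of 3463), 9.10% from 1 to under 10 FPKM (468 of 5145), 4.19% from 10 to under 100 FPKM (181 of 4318) and 4.35% at 100 FPKM or more (16 of 368). At or above 10 FPKM, 4.20% of 4686 rows were unmatched, and these are the genes described here. They held 3.80% of the summed FPKM in both ferret libraries (9061 of 238385 and 9426 of 247918 FPKM), which was 82.6% and 82.9% of the FPKM of all unmatched rows.

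**Figure D1:**
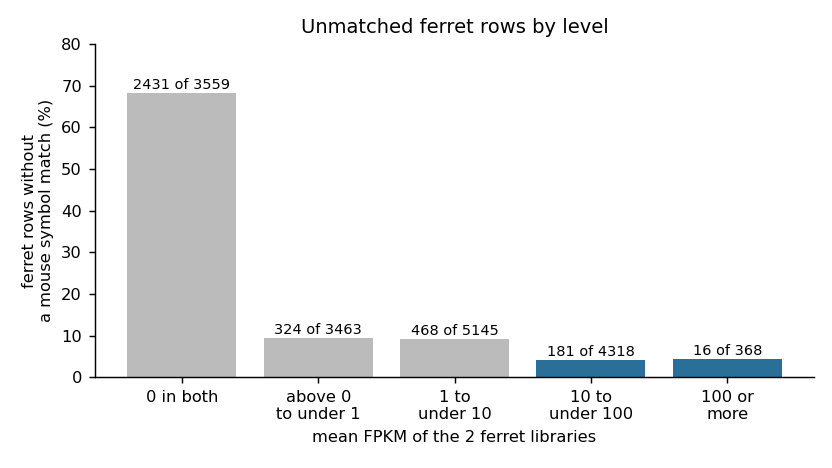
Bars give the percent of ferret rows whose symbol is absent from the mouse values, by mean FPKM of the 2 ferret libraries, with the number of rows above each bar. The blue bars hold the genes described here, and the tallest bar (68.3%) is that of rows listed at 0 in both libraries.

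The levels of these genes ranged from 10.0 to 880 FPKM with a median of 22.0 FPKM, beside a median of 22.6 FPKM for the 4489 rows that had a mouse match and at least 10 FPKM. Just inside the minimum were SIAH1 (10.1 FPKM), WWC3 (10.1 FPKM) and CTU2 (10.0 FPKM), and just outside it were GET3 (9.97 FPKM), CTPS1 (9.95 FPKM) and ASMTL (9.91 FPKM). The 2 ferret libraries differed little: the median absolute log2 difference between them was 0.077 over these genes and 0.081 over the matched rows at this level. Only 5 rows differed by more than 0.5 on the log2 scale, and all 5 carried noncoding RNA names.

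By name, the 197 rows fell into 6 classes. Most of them, 129, were protein-coding genes that have a mouse counterpart under another symbol, and they held 68.7% and 69.3% of the FPKM of the unmatched abundant rows in the 2 libraries. A further 15 were single ferret names for which the mouse has several paralogs with suffixed names. The other classes were 21 genes whose mouse values were not analysed here although the mouse annotation holds the gene (20 of them lie close together on mouse chromosome 8), 20 genes to which no mouse gene was assigned, 7 rows with noncoding RNA names and 5 readthrough names that join 2 neighbouring genes. The assignments were checked by gene order. For the 135 of the 144 renamed and paralog genes that could be placed in both genomes, all 135 shared at least 1 of their flanking gene symbols between ferret and mouse, as did 12426 of 12493 genes with the same name in both species (99.5%). The 135 include C1orf56, whose first mouse name failed this check and was replaced, and some mouse clone names were themselves found through neighbouring genes, so for those the check is not independent.

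**Figure D2:**
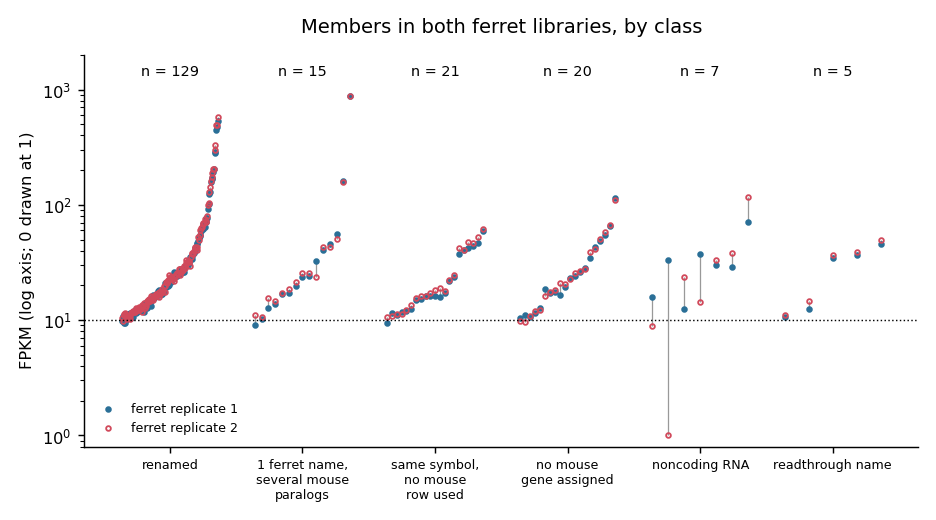
Points give the FPKM of each gene in ferret replicate 1 (filled) and replicate 2 (open) on a log axis, ordered by mean within each of the 6 classes, with a grey line joining the 2 libraries and a dotted line at 10 FPKM. A value of 0 is drawn at 1. Libraries lie close together in 5 classes and apart in several noncoding RNA rows.

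Some naming families were lost almost whole. All 230 ferret rows named ZNF were unmatched and 23 of them reached 10 FPKM, as were all 32 rows with a KIAA number (8 at or above 10 FPKM), and all 9 septins (6). Numbered open reading frames were unmatched in 157 of 158 rows, of which 29 reached 10 FPKM. Rows named ATP5 were unmatched in 7 of 9 cases, rows named SUPT in 6 of 7, and core histones and histone variants in 12 of 13. Large families with names shared by human and mouse were mostly kept. Unmatched were 12 of 339 SLC transporters, 5 of 191 TMEM names and 4 of 60 RAB names. Of 45 names that begin with RPL or RPS and a digit, which can include genes other than ribosomal proteins, 2 were unmatched. Not every loss was one of spelling, since the counts also hold genes such as SLC7A5 and RAB4A, which carry the same symbol in the mouse annotation and whose mouse values were not analysed here.

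For the 144 renamed and paralog genes, mouse values were looked up under the mouse name and the species were compared on log2(FPKM + 1). A gene counted as called when its limma p, adjusted by Benjamini and Hochberg's method, was under 0.05 and its log2 difference exceeded 1 in size. By this criterion 57 of the 144 genes (39.6%) were called, 34 higher in ferret and 23 lower, where 33.3% of the 4489 shared symbols at this ferret level were called (17.3% higher and 16% lower in ferret) and 43.1% of all 10348 genes fitted (13.2% higher and 29.9% lower). Because a high ferret value was required, nothing is read from these counts. The median log2 difference of the 144 genes was 0.25 (quartiles -0.48 and 0.97), that of the shared symbols at this level was 0.01 and that of all genes fitted was -0.34. Both ferret libraries lay above both mouse libraries for 79 genes and below them for 58, and the libraries overlapped for 7. Among the shared symbols the corresponding shares were 47% above and 46% below.

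The split depended on scaling. The 2 ferret libraries summed to less FPKM over the joined genes than the mouse libraries, and rescaling all 4 libraries to the same sum moved the median of all genes fitted from -0.34 to 0.01. The renamed genes were then called higher in ferret in 52 cases and lower in 16, and with quantile normalization in 54 and 16. Over all genes fitted, 2020 were called higher and 2231 lower of 10353 after rescaling. With quantile normalization these were 2141 higher and 2065 lower of 10348. The log2 difference changed sign in 20 of the 144 genes under each of the 2 scalings. Values below are as deposited. Where they are discussed singly, log2 differences are given with their standard error (SE) from the fit over 2 libraries per species. A called gene that loses its call under rescaling is named where it is described. Genes that gain a call under rescaling are not all named.

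**Figure D3:**
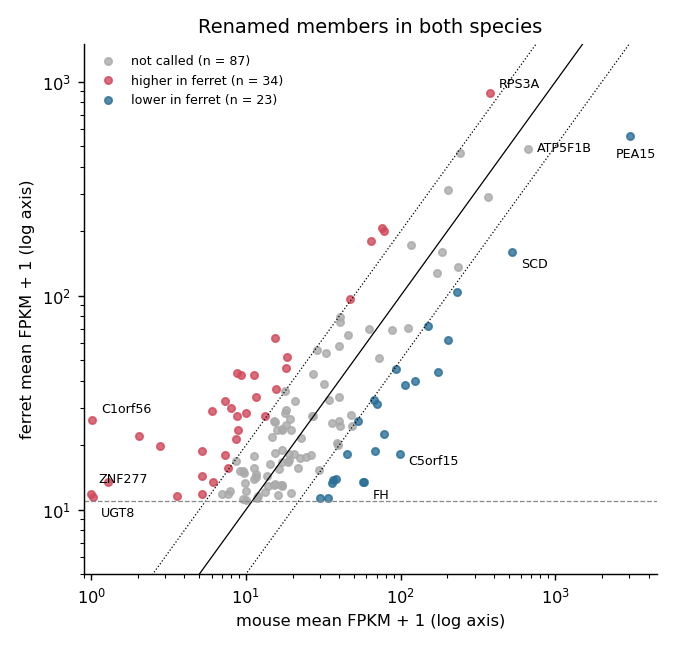
Mean FPKM + 1 of the 2 ferret libraries against that of the 2 mouse libraries for the 144 renamed genes, on log axes, with the line of equality, dotted lines at a log2 difference of 1 in either direction and a dashed line at the ferret minimum of 10 FPKM. Red points were called higher in ferret (34), blue points lower (23) and grey points were not called (87), and C1orf56, ZNF277 and UGT8 lie at the left edge with mouse means near 0.

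ATP synthase is the mitochondrial rotary enzyme that makes ATP from the proton gradient. Its subunits were renamed in human to ATP5F1, ATP5M and ATP5P names and its inhibitor to ATP5IF1, while the mouse values carry the older names. These 7 genes alone held 16.5% and 16.9% of the FPKM of the unmatched abundant rows. ATP5F1B, the catalytic beta subunit (mouse Atp5b), had 471 and 497 FPKM in ferret and 641 and 692 FPKM in mouse. Both ferret values were below both mouse values, with a log2 difference of -0.46 (SE 0.066). ATP5MC3, a c-ring subunit (Atp5g3), had 279.9 and 298 FPKM in ferret and 358 and 374 FPKM in mouse. ATP5F1C, the gamma subunit of the central stalk (Atp5c1), had 157 and 162 FPKM in ferret and 181 and 186 FPKM in mouse. ATP5IF1, the inhibitor that blocks ATP hydrolysis by the enzyme (Atpif1), had 125 and 129 FPKM in ferret and 168 and 172 FPKM in mouse. In all 3 genes the ferret libraries were again the lower ones, by less than 1 on the log2 scale.

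ATP5PF, coupling factor 6 of the peripheral stalk (Atp5j), had 101 and 103 FPKM in ferret and 230.4 and 230.4 FPKM in mouse and a log2 difference of -1.16 (SE 0.055). ATP5F1D, the delta subunit (Atp5d), had 70.9 and 71.6 FPKM in ferret and 147 and 153 FPKM in mouse and a log2 difference of -1.07 (SE 0.056). These 2 genes were called lower in ferret and were no longer called after rescaling. ATP5ME, the e subunit at the base of the enzyme (Atp5k), went the other way with 289 and 332 FPKM in ferret and 195 and 208 FPKM in mouse. As deposited, both ferret libraries lay below both mouse libraries in 6 of the 7 genes (subunits and inhibitor). This held for 46% of the shared symbols at this ferret level, and nothing is read from so few genes. After rescaling 4 of the 7 genes were lower and 3 higher, and only ATP5ME was called, as higher (1.01). With quantile normalization ATP5ME was not called (0.97). Beside them, C16orf91 (BC003965), an assembly factor of respiratory complex III, had 11.3 and 10.3 FPKM in ferret and 6.59 and 6.67 FPKM in mouse. COA1, an assembly factor of cytochrome c oxidase to which no mouse gene was assigned, had 34.3 and 39.2 FPKM in ferret.

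Septins are GTP-binding proteins that assemble into filaments and rings next to membranes and actin. The ferret files spell them SEPTIN and the mouse files Sept, and 6 of them were abundant. SEPTIN11 had 206 and 206 FPKM in ferret and 75.4 and 75.1 FPKM in mouse. SEPTIN2 had 193 and 206 FPKM in ferret and 77.6 and 76.6 FPKM in mouse. SEPTIN10 was lower in both species, with 32.4 and 32.4 FPKM in ferret and 10.4 and 11.01 FPKM in mouse. These 3 were called higher in ferret, with log2 differences of 1.44, 1.36 and 1.52 in that order. The mouse name Sept2 has several rows, and SEPTIN2 was not called when they were summed (0.70). SEPTIN7, the subunit found in nearly all septin complexes, had 45.4 and 40.5 FPKM in ferret and 173.6 and 173.4 FPKM in mouse. SEPTIN9 had 38.3 and 39.5 FPKM in ferret and 121 and 125 FPKM in mouse. Both were called lower in ferret, by -1.99 and -1.64. SEPTIN8 had 61.8 and 67.5 FPKM in ferret and 43.6 and 45.5 FPKM in mouse and was not called. The direction of all 6 septins was the same after rescaling and after quantile normalization, with 4 higher and 2 lower in ferret.

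Tubulin, the subunit of microtubules, lost its main beta isotype in the join. TUBB (Tubb5) was the fourth most abundant unmatched gene, with 442 and 488 FPKM in ferret and 239.9 and 244 FPKM in mouse, a log2 difference of 0.94 that fell short of the call and passed it after rescaling. DYNLT1, a light chain of the dynein motor, had 19.8 and 21.5 FPKM in ferret and 22.1 and 21.3 FPKM in mouse, which is the level of Dynlt1f, the highest of 4 mouse paralogs.

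PEA15 (Pea15a), a phosphoprotein with a death effector domain that is rich in astrocytes, was the second most abundant unmatched gene in ferret. It had 539 and 573 FPKM in ferret and 2948 and 3149.8 FPKM in mouse. The mouse values were the higher ones by far, and its log2 difference of -2.45 (SE 0.069) was the lowest of all 144 genes. ANKH (Ank), which exports pyrophosphate and citrate from the cell, had 36.3 and 37.99 FPKM in ferret and 102 and 109 FPKM in mouse. IL4R (Il4ra), the receptor chain shared by interleukin-4 and interleukin-13 signalling, had 21.6 and 23.7 FPKM in ferret and 7.99 and 7.89 FPKM in mouse. KITLG (Kitl), the ligand of the KIT receptor, had 27.3 and 27.1 FPKM in ferret and 8.70 and 9.34 FPKM in mouse. The last 2 were called higher in ferret and PEA15 and ANKH lower, in each case with no overlap of libraries. The KIT receptor itself, a symbol shared by both species, was under 1 FPKM in all 4 libraries (0.531 and 0.613 in ferret, 0.599 and 0.428 in mouse), as was the gene of the IL4R ligand IL4, at 0 in both ferret libraries and at 0.935 and 0.850 FPKM in mouse. IFI27L2, a small protein of an interferon-induced family, had 40.4 and 42.7 FPKM in ferret and 11.5 and 9.16 FPKM in mouse, with the mouse values those of Ifi27l2a, and was called higher in ferret. KIRREL1 (Kirrel), an adhesion protein of the immunoglobulin superfamily, had 11.1 and 10.8 FPKM in ferret and 18.5 and 18.9 FPKM in mouse and was not called.

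The lipid genes dropped by the join ranged from fatty acid desaturation to sterol and ceramide synthesis. SCD, the desaturase that puts the double bond into stearoyl-CoA, is 1 gene in ferret with 162 and 157 FPKM and faces Scd2 with 508 and 542 FPKM and Scd1 with 166 and 179 FPKM in mouse. Against Scd2 the log2 difference was -1.71 (SE 0.060), called lower in ferret. CYP51A1 (Cyp51), the lanosterol demethylase of cholesterol synthesis, had 42 and 42.3 FPKM in ferret and 24.9 and 27.3 FPKM in mouse. C12orf49 (2410131K14Rik), a regulator of the sterol-sensing SREBP pathway, had 19.5 and 21.5 FPKM in ferret and 7.53 and 7.76 FPKM in mouse and was called higher in ferret, as was TLCD3A (Fam57a), a protein linked to ceramide synthesis, with 14.00 and 12.8 FPKM in ferret and 4.53 and 3.89 FPKM in mouse. ACAA1, the peroxisomal thiolase, had 24.2 and 25.5 FPKM in ferret and 38.1 and 39.5 FPKM in mouse, with the mouse values those of Acaa1a. CERT1 (Col4a3bp), which carries ceramide from the endoplasmic reticulum to the Golgi, and CYP4V2 (Cyp4v3), a fatty acid hydroxylase, were close between species, with log2 differences of -0.04 and -0.16.

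UGT8 (Ugt8a), which makes galactosylceramide, a main lipid of myelin, had 9.49 and 11.5 FPKM in ferret and 0.0495 and 0.0206 FPKM in mouse. Both ferret values were far above both mouse values, and the log2 difference was 3.47 (SE 0.096), which became 6.30 with a pseudocount of 0.1. Of 9 markers of the oligodendrocyte lineage, 7 were higher in both ferret libraries than in both mouse libraries and 2 were lower. SOX10 had 26.3 and 30.9 FPKM against 0.231 and 0.304 FPKM, whereas OLIG2 had 4.92 and 5.18 FPKM against 9.62 and 9.80 FPKM and CSPG4 1.04 and 1.16 FPKM against 2.00 and 1.81 FPKM. The sum of the 9 markers was 169 and 188 FPKM against 69.0 and 69.0 FPKM, with 8 of 9 at 1 FPKM or more in ferret and 6 of 9 in mouse. Their part in the UGT8 difference was not tested. QKI (Qk), an RNA-binding protein of glia that controls splicing of myelin and astrocyte transcripts, had 167 and 175 FPKM in ferret and 112 and 119 FPKM in mouse and was not called.

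Of 10 genes of carbon, nucleotide and redox metabolism, 8 had log2 differences below 0 as deposited, among them ISOC2 whose libraries overlapped between species, and 7 after rescaling. No direction is read from so few genes, since over all 10348 genes fitted the median was itself -0.34. GPI (Gpi1), the glycolytic glucose-6-phosphate isomerase, had 129 and 142 FPKM in ferret and 232 and 235 FPKM in mouse. It was not called. PC (Pcx), pyruvate carboxylase, which astrocytes use to refill the citric acid cycle, had 29.3 and 31.1 FPKM in ferret and 65.99 and 71.9 FPKM in mouse. It was called lower in ferret and lost the call after rescaling (-0.78). FH (Fh1), fumarate hydratase of the citric acid cycle, had 11.9 and 12.9 FPKM in ferret and 55.2 and 58.1 FPKM in mouse and was called lower with or without rescaling. HPRT1 (Hprt), the purine salvage enzyme often taken as a reference gene in quantitative PCR, had 24.5 and 22.6 FPKM in ferret and 46.9 and 47.5 FPKM in mouse.

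Of the aldo-keto reductases, AKR1B1 (Akr1b3), the aldose reductase, had 92.3 and 99.3 FPKM in ferret and 45.4 and 47.4 FPKM in mouse. AKR7A2 (Akr7a5), which reduces succinic semialdehyde and aflatoxin aldehyde, had 16.3 and 16.9 FPKM in ferret and 22.5 and 24.3 FPKM in mouse. AKR1B1 was called higher in ferret at 1.03 (SE 0.062), a call that was lost without ferret replicate 2 (0.98) and without mouse replicate 1 (0.999), and AKR7A2 was not called. CA11 (Car11), a carbonic anhydrase-related protein, had 16.8 and 16.9 FPKM in ferret and 10.2 and 10.4 FPKM in mouse. SERHL2 (Serhl), a serine hydrolase-like protein, had 9.45 and 11.3 FPKM in ferret and 32.8 and 32.8 FPKM in mouse and was called lower in ferret.

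Several vesicle traffic genes differ from their mouse names by a letter or a digit, and others, such as GET1 and DENND10, by the whole name. RAB7A (Rab7), the small GTPase of late endosomes, had 59.3 and 62.6 FPKM in ferret and 197 and 208 FPKM in mouse. RAB9A (Rab9), which returns receptors from late endosomes to the Golgi, had 54.1 and 55.3 FPKM in ferret and 26.9 and 28.8 FPKM in mouse. RAB7A was called lower in ferret at -1.72 (SE 0.060). RAB9A was higher in ferret without a call as deposited, at 0.95, and was called higher after rescaling (1.33). HM13 (H13), the signal peptide peptidase, had 16.9 and 18.8 FPKM in ferret and 66.3 and 68.3 FPKM in mouse and was called lower in ferret. GET1 (Wrb) and CAMLG (Caml) form together the receptor that inserts tail-anchored proteins into the endoplasmic reticulum. GET1 had 61.5 and 63.8 FPKM in ferret and 13.6 and 15.03 FPKM in mouse and was called higher in ferret, and CAMLG had 10.9 and 9.82 FPKM in ferret and 29.7 and 28.2 FPKM in mouse and was called lower. SRPRA (Srpr), the receptor of the signal recognition particle, had 54.6 and 60.2 FPKM in ferret and 39.2 and 38.5 FPKM in mouse. SRP54, the particle's GTPase, had 55.7 and 50.8 FPKM in ferret and 31.7 and 32.2 FPKM in mouse, where the mouse values are those of Srp54a. Both were higher in ferret by less than 1 on the log2 scale, SRP54 against Srp54a only. STX5 (Stx5a), a fusion protein of the Golgi, had 19.1 and 19.7 FPKM in ferret and 38.1 and 36.96 FPKM in mouse. TOMM70 (Tomm70a), an import receptor of mitochondria, had 34.5 and 34.98 FPKM in ferret and 17.1 and 16.8 FPKM in mouse. DENND10 (Fam45a), an endosomal regulator, had 12.2 and 12.4 FPKM in ferret and 35.2 and 34.6 FPKM in mouse. Of these, only DENND10 was called as deposited (lower in ferret), while TOMM70 and SRP54 were called higher in ferret after rescaling, the latter against Srp54a only.

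The genes of protein turnover included inhibitors, ubiquitin enzymes and peptidases. SERPINB1 (Serpinb1a), an intracellular inhibitor of neutrophil proteases, had 30.8 and 31.8 FPKM in ferret and 5.56 and 7.08 FPKM in mouse and was called higher in ferret. UBE2D2, a ubiquitin-conjugating enzyme, had 45.4 and 43.3 FPKM in ferret and 89.5 and 93.9 FPKM in mouse, where the mouse values are those of Ube2d2a. It was called lower in ferret at -1.03 (SE 0.059) and lost the call after rescaling (-0.65) and without ferret replicate 2 or mouse replicate 2 (both -0.998). NRDC (Nrd1), a metalloendopeptidase, had 26.6 and 26.6 FPKM in ferret and 47.8 and 45.7 FPKM in mouse. DNASE2 (Dnase2a), the lysosomal nuclease, had 22.4 and 22.98 FPKM in ferret and 16.4 and 15.96 FPKM in mouse. Neither was called.

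TP53BP1, a DNA repair adaptor, had 21.6 and 23.8 FPKM in ferret and 14.4 and 15.3 FPKM in mouse. TP53BP2, an apoptosis-stimulating protein, had 14.4 and 14.8 FPKM in ferret and 6.31 and 6.98 FPKM in mouse. TP53INP1, a stress-induced nuclear protein, had 17.7 and 16.5 FPKM in ferret and 25.2 and 25.2 FPKM in mouse. Of these 3 genes only TP53BP2 was called, higher in ferret at 1.03 (SE 0.073), and the call was lost without mouse replicate 1 (0.97). TP53I3, a quinone oxidoreductase to which no mouse gene was assigned, had 16.5 and 20.8 FPKM in ferret.

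Transcription elongation factors carry a final letter H in ferret that the mouse omits. SUPT4H1 (Supt4a) and SUPT5H (Supt5) form the elongation factor DSIF. SUPT4H1 had 76.9 and 80.01 FPKM in ferret and 38.5 and 40.6 FPKM in mouse. SUPT5H had 30.3 and 32.9 FPKM in ferret and 33.5 and 32.99 FPKM in mouse. SUPT6H (Supt6), a histone chaperone that travels with RNA polymerase II, had 29.7 and 32.9 FPKM in ferret and 19.5 and 20.2 FPKM in mouse. SUPT16H (Supt16), a subunit of the FACT chaperone, and SUPT20H (Supt20), a subunit of the SAGA complex, had log2 differences of -0.16 and 0.20. None of the 5 was called as deposited, and SUPT4H1 and SUPT6H were called higher in ferret after rescaling.

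For histones the ferret values carry the older names and the mouse values the newer ones. HIST2H2AC (H2ac20), a core histone H2A gene, had 17.97 and 19.9 FPKM in ferret and 1.87 and 1.66 FPKM in mouse and was called higher in ferret at 2.85 (SE 0.081). H2AFY (Macroh2a1), the macroH2A variant found on silent chromatin, had 24.1 and 25.7 FPKM in ferret and 50.98 and 53.6 FPKM in mouse, and H2AFV (H2az2), an H2A.Z variant, had 16.7 and 17.6 FPKM in ferret and 42.6 and 45.6 FPKM in mouse. Both variants were called lower in ferret and lost the call after rescaling, with -0.66 for H2AFY and -0.94 for H2AFV, and H2AFY also lost it without ferret replicate 1 (-0.99). HMGN4, a nucleosome-binding protein to which no mouse gene was assigned, had 28.5 and 27.7 FPKM in ferret. MORC2, an ATPase of gene silencing, had 13.8 and 14.6 FPKM in ferret and 8.86 and 7.37 FPKM in mouse, the mouse values being those of Morc2a.

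In translation, RPS3A, a protein of the small ribosomal subunit, was the most abundant unmatched gene of all. It had 875 and 885 FPKM in ferret and 371 and 377 FPKM in mouse, where the mouse values are those of Rps3a1. The difference of 1.23 (SE 0.058) was called, but the mouse values also hold Rps3a2 (74.7 and 76.2 FPKM) and Rps3a3 (13.4 and 13.1 FPKM), and with the paralogs summed the difference was 0.93 and not called. Near-identical copies of ribosomal protein genes can share reads, so how reads were divided among them is uncertain. EIF3J, a subunit of initiation factor 3, had 32.8 and 23.6 FPKM in ferret and 16.6 and 17.5 FPKM in mouse (Eif3j2 in mouse), with a wider gap between the ferret libraries than any other renamed gene on the log2 scale. RPL26L1, a relative of the ribosomal protein RPL26 with no mouse gene assigned, had 12.7 and 12.1 FPKM in ferret, where RPL26 itself had 1001 and 1082 FPKM. The unmatched relative was thus far below the matched gene. SAMD4A (Samd4), a translational repressor, had 26.1 and 28.5 FPKM in ferret and 16.6 and 17.2 FPKM in mouse. MTRES1 (1700021F05Rik), which protects mitochondrial transcription, had 14.5 and 14.9 FPKM in ferret and 22.5 and 18.98 FPKM in mouse.

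For the 15 single ferret names with several mouse paralogs, the choice of mouse row decided some comparisons. The mouse gene with the highest mean was used for the values given here. TMEM254 had 16.8 and 17.2 FPKM in ferret and faces Tmem254a, Tmem254b and Tmem254c at 5.65 to 6.42 FPKM each, so it was called higher in ferret against one of them (1.30) and differed from their sum by -0.08. TMEM181 had 17.03 and 18.6 FPKM and faces 3 mouse rows of 2.75 to 4.30 FPKM, 2 of which are named as pseudogenes. The row used for its call as higher was itself named as a pseudogene (Tmem181b-ps, 4.09 and 4.30 FPKM). Tmem181a, the row not so named, was lower, at 3.45 and 3.11 FPKM. The call was lost with the sum of all 3 rows (0.73), which includes the pseudogenes. With its paralogs summed, DYNLT1 turned from a difference of -0.07 to one called lower in ferret (-1.43). In SRP54 the other mouse copies had 25.2 and 25.5 FPKM (Srp54c) and 15.7 and 16.4 FPKM (Srp54b). Together with Srp54a they exceeded the ferret values, so SRP54 was higher in ferret only against a single copy. In MFAP1, a spliceosome protein with 23.6 and 25.8 FPKM in ferret, the copies Mfap1a and Mfap1b were level at 14.2 to 14.8 FPKM. Here, too, the copies together exceeded the ferret values. In UBE2D2 and MORC2 the second copy was at or under 0.05 FPKM in both mouse libraries, so those pairs hardly depended on the choice.

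Zinc finger proteins bind DNA or RNA through fingers folded around a zinc ion, and are the largest family lost to 1 spelling rule. Of the 23 abundant ZNF names, 21 were paired with a Zfp gene, ZNF276 has a mouse gene Zfp276 whose values were not analysed here, and ZNF385D was not assigned. Their levels were low, with a median of 12.9 FPKM over the 21. The highest was ZNF207, a spindle protein, with 68.6 and 69.4 FPKM in ferret and 61.2 and 61.1 FPKM in mouse, a log2 difference of 0.17 (SE 0.055). ZNF24, a transcriptional regulator, was next with 51.7 and 49.4 FPKM in ferret and 17.5 and 17.2 FPKM in mouse and was called higher in ferret. Called were 3 of the 21 (14.3%), beside 33.3% of the shared symbols at this ferret level, and nothing is read from so few genes. Besides ZNF24 these were ZNF277 (higher) and ZNF106, an RNA-binding protein (lower, 12.4 and 13.3 FPKM in ferret and 36.01 and 37.97 FPKM in mouse).

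ZNF277, which binds ribosomal protein uS5, had 10.95 and 10.7 FPKM in ferret, while mouse Zfp277 was listed at 0 in both libraries. An exact 0 in FPKM can be a failed estimate, so no fold is given for it. The others were ZNF148, ZNF260, ZNF281, ZNF322, ZNF326, ZNF330, ZNF384, ZNF397, ZNF410, ZNF428, ZNF462, ZNF512, ZNF512B, ZNF574, ZNF609, ZNF622 and ZNF638, with log2 differences from -0.40 (ZNF148) to 0.96 (ZNF462). As deposited, 10 of the 21 were above 0 and 11 below, and after either rescaling 19 were above and 2 below, so their direction rested on the scaling.

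Of the groups into which the 197 rows were sorted, placeholder names were the largest, with 40 rows. Across all groups, 37 numbered open reading frames or KIAA numbers were paired with a mouse clone name. They were called higher in ferret in 12 cases and lower in 4, which became 15 and 4 after rescaling and 17 and 4 with quantile normalization. As deposited these were 32.4% higher and 10.8% lower, beside 17.3% and 16% of the shared symbols at this ferret level. Because a high ferret value was required, nothing is read from these counts either. The most abundant, C11orf58 (1110004F10Rik), a small acidic protein of unknown role, had 171 and 188 FPKM in ferret and 62.1 and 64.1 FPKM in mouse and was called higher in ferret. C2orf72 (2810459M11Rik) had 76.5 and 72.4 FPKM in ferret and 38.6 and 40.5 FPKM in mouse. C19orf53 (D8Ertd738e) had 67.6 and 69.3 FPKM in ferret and 86.9 and 87.6 FPKM in mouse. Neither of these 2 was called.

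The largest difference of all 144 genes was that of C1orf56 (Gm128), with 24.9 and 25.6 FPKM in ferret and 0.0326 and 0 FPKM in mouse and a log2 difference of 4.69 (SE 0.073). Its mouse name had replaced one that failed the check by gene order, so the flanking genes it shares are no independent support. With mouse values at or near 0 the size rests on the pseudocount, and with 0.1 in place of 1 it was 7.78. C1orf194 (1700013F07Rik), a protein of motile cilia, had 19.6 and 22.5 FPKM in ferret and 0.672 and 1.38 FPKM in mouse. C1orf35 (2310033P09Rik) had 42.6 and 42.05 FPKM in ferret and 6.97 and 8.46 FPKM in mouse. C18orf21 (2700062C07Rik) had 40.2 and 42.9 FPKM in ferret and 8.43 and 8.15 FPKM in mouse. In these 3 genes, too, the libraries of the species did not overlap. KIAA0408 (9330159F19Rik) had 29.3 and 28.3 FPKM in ferret and 6.87 and 7.19 FPKM in mouse. KIAA0753 (4933427D14Rik), a centriole protein, had 10.1 and 11.1 FPKM in ferret and 3.06 and 2.11 FPKM in mouse. C16orf58 (BC017158) had 25.1 and 27.8 FPKM in ferret and 7.78 and 7.82 FPKM in mouse. All 7 were called higher in ferret.

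In the opposite direction, C5orf15 (9530068E07Rik) had 18.4 and 15.96 FPKM in ferret and 97.1 and 97.8 FPKM in mouse. KIAA0100 (2610507B11Rik), a lipid transfer protein, had 12.4 and 12.6 FPKM in ferret and 55.2 and 57.2 FPKM in mouse. The mouse values were several times the ferret values in both. C6orf89 (BC004004) had 21.3 and 21.8 FPKM in ferret and 72.8 and 82.4 FPKM in mouse. C11orf49 (1110051M20Rik), a subunit of the enzyme complex that adds glutamate chains to tubulin, had 12.1 and 13.5 FPKM in ferret and 34.9 and 36.6 FPKM in mouse. These are the 4 placeholder names called lower in ferret. Among the remaining ones, KIAA0232 (D5Ertd579e) and C9orf78 (BC005624) overlapped between species, with log2 differences of 0.05 and 0.01. The FAM names FAM177A1 (Fam177a), with 26.02 and 29.7 FPKM in ferret and 4.94 and 5.21 FPKM in mouse, and FAM149B1 (Fam149b), with 10.4 and 10.96 FPKM in ferret and 15.7 and 14.7 FPKM in mouse, were lost for a final digit, and the first was called higher in ferret.

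Of the genes without a group of their own, PNMA8A (Pnmal1), a member of the retrotransposon-derived PNMA family, had 12.5 and 12.4 FPKM in ferret and 0.293 and 0.276 FPKM in mouse and was called higher in ferret at 3.39 (SE 0.073). NIBAN2 (Fam129b), a phosphoprotein of cell survival, had 31.2 and 32.1 FPKM in ferret and 66.4 and 66.8 FPKM in mouse and was called lower, a call lost after rescaling (-0.67). The transporter names SLC66A2 (Pqlc1) and SLC35E2B (Slc35e2) were both called higher in ferret. SLC66A2 had 11.5 and 10.3 FPKM in ferret and 4.32 and 4.03 FPKM in mouse. SLC35E2B had 13.3 and 11.7 FPKM in ferret and 5.22 and 5.02 FPKM in mouse. A mouse mean under 1 FPKM was found for 4 of the 144 genes (C1orf56, ZNF277, UGT8 and PNMA8A), beside 1.56% of the shared symbols at this ferret level. C1orf194 was next, with a mouse mean just above 1 FPKM.

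**Figure D4:**
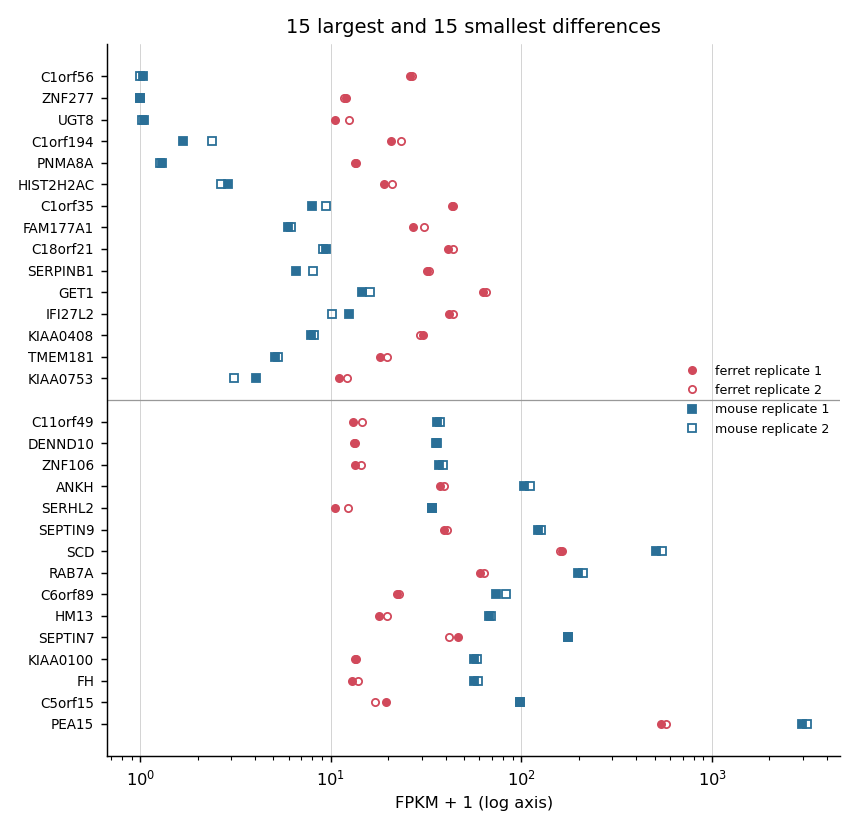
FPKM + 1 in each of the 4 libraries on a log axis for the 15 renamed genes with the largest (top) and the 15 with the smallest (bottom) ferret minus mouse log2 difference. Circles are ferret and squares mouse, filled for replicate 1 and open for replicate 2, and in all 30 genes the libraries of a species lie together and apart from those of the other species.

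By group, the differences ran both ways. Placeholder names, the largest group, had the most genes called higher (14 of 39, 35.9%, with 4 lower, 10.3%). Vesicle traffic genes had 1 higher (8.33%) and 4 lower (33.3%) of 12. Among the shared symbols at this ferret level, 17.3% were called higher and 16% lower. The groups are small and were selected on ferret level, so these shares are descriptions. The medians of the groups ranged from -0.72 for carbon, nucleotide and redox metabolism to 0.73 for septins, tubulin and cytoskeleton. Rescaling moved the group medians up by about the same amount as that of all genes, so that ATP synthase and respiratory chain assembly went from -0.38 to 0.01 and zinc finger proteins from -0.06 to 0.30.

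**Figure D5:**
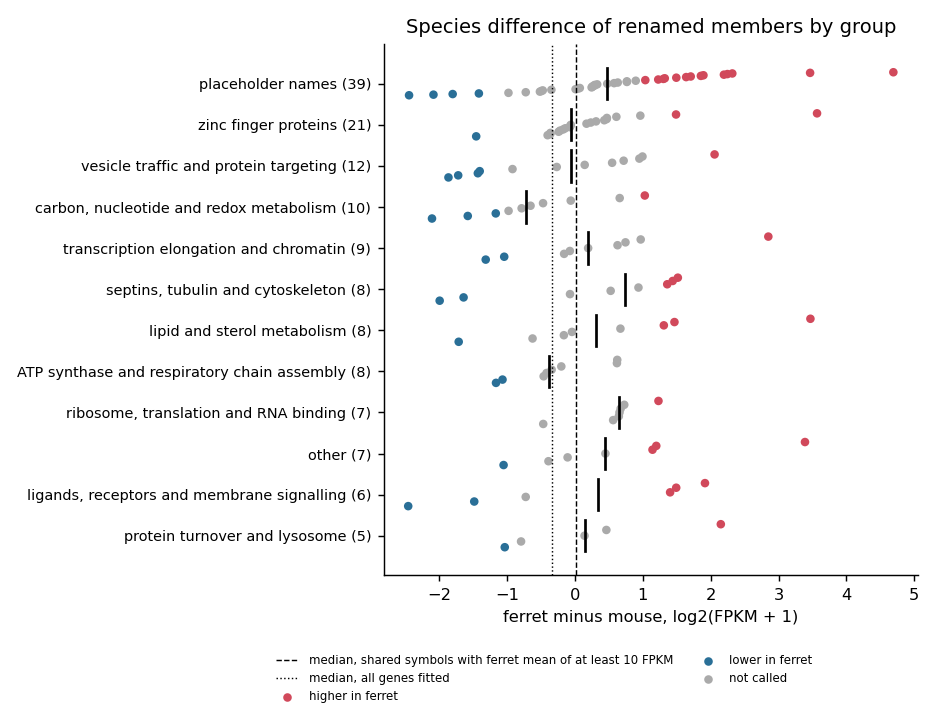
Each point is 1 renamed gene at its ferret minus mouse difference on log2(FPKM + 1), in rows by group with the number of genes in brackets, coloured by call, with a black bar at the group's median, and 1 group of 4 genes is not drawn. The dashed line is the median of shared symbols with a ferret mean of at least 10 FPKM (0.01) and the dotted line that of all genes fitted (-0.34), and every group drawn holds genes on both sides of the dashed line.

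The 20 genes with no assigned mouse gene had 10.1 to 112 FPKM in ferret. CD99, an adhesion protein of the cell surface, was the highest, with 114 and 109.7 FPKM. DPCD, a protein linked to cilia, had 65.9 and 67.4 FPKM. Both were well above the median of the unmatched abundant genes. DDTL, a relative of D-dopachrome tautomerase, had 55.04 and 57.8 FPKM. CTSV, a lysosomal cysteine protease close to cathepsin L, had 48.4 and 50.5 FPKM. For 3 of these genes the related shared name was also absent from the ferret symbols: the mouse values held Ddt at 45.2 and 48.0 FPKM, Ctsl at 529 and 536 FPKM and Hmgn2 at 53.7 and 58.7 FPKM, while the ferret rows had no DDT, CTSL or HMGN2. Whether the ferret rows DDTL, CTSV and HMGN4 stand for those genes was not tested.

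STK17A, a kinase of the death-associated family, had 43.4 and 41.2 FPKM in ferret, where its relative STK17B, a shared symbol, had 5.51 and 4.17 FPKM in ferret and 17.9 and 17.7 FPKM in mouse. TRIM4, a ubiquitin ligase, had 26.1 and 26.5 FPKM. DERPC had 24.2 and 25.4 FPKM. Both were somewhat above the median of the unmatched abundant genes. FAM111B, a protease, had 23.4 and 22.9 FPKM. RBM23, an RNA-binding protein, had 19.6 and 20.5 FPKM. ZSCAN23, a zinc finger protein with a SCAN domain, had 17.7 and 18.4 FPKM. PRTFDC1, a relative of the purine salvage enzyme, had 18.7 and 16.3 FPKM. BCAS4 had 17.3 and 17.7 FPKM. In each of these the 2 ferret libraries were close. CYP4F8, HSD11B1L, ZNF385D and WWC3 completed the class, each with ferret means of 10.1 to 11.8 FPKM.

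Readthrough names join 2 neighbouring genes, and all 5 hid at least 1 gene that the mouse lists on its own. FMC1-LUC7L2 had 45.4 and 49.4 FPKM in ferret, while mouse Fmc1, an assembly factor of ATP synthase, had 30.04 and 31.1 FPKM and Luc7l2, a splicing factor, had 48.9 and 43.8 FPKM. RNASEK-C17orf49 had 36.9 and 38.8 FPKM, against 122 and 138 FPKM for mouse Rnasek, a subunit associated with the vacuolar proton pump. TGIF2-RAB5IF had 34.3 and 36.8 FPKM, against 68.6 and 74.02 FPKM for mouse Rab5if and 1.15 and 1.56 FPKM for Tgif2. The ferret files also have a row TGIF2 at 4.45 and 4.36 FPKM. ARL2-SNX15 had 12.4 and 14.6 FPKM beside a ferret row SNX15 at 5.51 and 6.23 FPKM, and MSANTD3-TMEFF1 had 10.7 and 11.03 FPKM. A joined row cannot be divided between its 2 genes from FPKM, so no difference was computed.

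Noncoding RNA names made up most of the unmatched rows and few of the abundant ones. They were carried by 2335 of the 3420 unmatched rows, and 7 of these reached 10 FPKM. U6, the spliceosomal small nuclear RNA, was the extreme case, with 1057 ferret rows of which 1033 were listed at 0 and 1 reached 10 FPKM, at 70.5 and 116.3 FPKM. Of 33 Y_RNA rows 2 reached the minimum, at 37.4 and 14.3 FPKM and at 15.8 and 8.97 FPKM, and no row of 5S_rRNA (504) or 7SK (345) did. The small nucleolar RNAs, which guide chemical modification of ribosomal RNA, were SNORA8 with 28.9 and 38.1 FPKM, SNORD39 with 30.1 and 33.1 FPKM and SNORA63 with 12.5 and 23.5 FPKM. The microRNA row MIR922 had 33.3 FPKM in replicate 1 and was listed at 0 in replicate 2, so it met the minimum through 1 library. The libraries were selected for polyadenylated RNA, which these RNAs lack in their mature form, and FPKM of a very short gene can rest on few fragments.

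The last class holds 21 genes that the mouse annotation carries, 20 under the same symbol and ZNF276 as Zfp276, and whose mouse values were not analysed here. For these 20 same-named genes the loss from the join is not one of naming, and without the 21 176 rows with 3.59% of the summed FPKM remain. In ferret they had 10.0 to 60.3 FPKM. CHMP1A, a subunit of the ESCRT membrane-scission machinery, had 59.02 and 61.6 FPKM. CYBA, a subunit of NADPH oxidases, had 47.04 and 52.2 FPKM. SLC7A5, the transporter of large neutral amino acids, had 43.8 and 46.7 FPKM. All 3 lay above the median of the unmatched abundant genes. TCF25, a ribosome quality control factor, had 42.6 and 47.3 FPKM. GALNT2, which starts O-linked glycans, had 40.5 and 40.9 FPKM. TRAPPC2L, a tethering factor of vesicles, had 37.3 and 42.4 FPKM. The lower ones included ZDHHC7, RAB4A, PIEZO1, a mechanically gated channel, GALNS, FBXO31, NUP133, SPG7, ACSF3, USP10, MVD, KLHDC4, EMC8, ZBED6 and CTU2.

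Seen from the mouse side, 1889 mouse rows with a mean of at least 10 FPKM had no ferret symbol match, and 119 of them were the counterparts, under another name, of the ferret genes described here.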

How the data were processed

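RNA was measured in 2 ferret and 2 mouse astrocyte libraries. The authors aligned reads with STAR (2.7.0f) to the Ensembl genome and annotation of each species and deposited 1 FPKM per gene and library from Cufflinks (2.2.1, both versions from the submitters' processing notes). FPKM is normalized to mapped fragments and exon length and holds no counts, and the read counts that the study lists were not used here, so no depth or counting interval is given. The lowest values give only a depth ratio of replicate 2 to replicate 1, 0.853 in ferret and 1.21 in mouse.

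Mouse names were assigned by hand from the ferret symbols and, for some clone names, from the neighbouring genes, without use of mouse values. They were checked by gene order, with 5 genes on either side in the ferret RefSeq table (ASM1176430v1.1) and 10 on either side in mouse GENCODE M21 (GRCm38). The check found 1 wrong name, that of C1orf56, which was corrected before its mouse values were seen. Where a name had several mouse rows, the highest by mean was taken.

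Species were compared by limma (3.58.1, R 4.3.3, with a trend) on log2(FPKM + 1), with species as the only term. The fit took in 10348 genes that averaged 1 FPKM or more in either species. P-values were adjusted by the Benjamini-Hochberg method over all of these genes. The standard errors describe these 4 libraries, and an exact permutation test of 2 against 2 libraries cannot reach 0.05. On simulated data for this comparison and all 10348 genes, 200 genes changed by 1.5 (log2) were called in 100% of cases, with 0 unchanged genes called. A change of 1.5 lies above the limit of 1 for a call and far above the standard errors given here. These values therefore say nothing about smaller differences. How calls would fare with the spread between separate cultures was not tested.

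The genes and lists were chosen with earlier results of these data known. Named are the 30 most abundant genes, the 15 largest and 15 smallest differences, all with a mouse mean under 1 FPKM, the 20 highest without an assigned mouse gene, 3 genes on each side of the minimum, and all members of fixed families (ATP synthase and respiratory chain, ribosomal proteins and translation factors, aldo-keto reductases, interferon-induced genes, histones, ZNF zinc fingers, tubulins, ubiquitin and small RNAs). Lists for thioredoxin, metallothioneins, glutathione S-transferases, carboxylesterases, complement regulators, major histocompatibility genes, chemokines and actins held none of the genes described. Other genes were named to describe their group after their values were seen. Some genes among those that meet these rules are not reported here.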

Additional observations from a re-analysis of the deposited data

How the results depend on the processing

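The number of unmatched abundant ferret rows (197) and their share of the summed FPKM (3.80%) followed the minimum. A minimum of 5 FPKM gave 332 rows and 4.19%, a minimum of 20 FPKM gave 105 rows and 3.28%, and FPKM rescaled to a sum of 1000000 gave 507 rows and 4.45%. Asking for 10 FPKM in both libraries gave a share of 3.75%, summing rows of a symbol 3.88%, and leaving out either ferret replicate 3.80% to 3.84%. Ignoring punctuation gave 3.79% by pairing MIR922 with the unrelated mouse name Mir92-2. Leaving out the 21 genes that the mouse annotation holds, an alternative chosen after seeing the data, gave 3.59%. The 144 renamed genes were called higher in ferret in 34 cases, in 52 after rescaling to equal sums and in 54 with quantile normalization, and their median difference of 0.25 became 0.62 and 0.63. Over all genes fitted, 1370 of 10348 were called higher as deposited, 2020 of 10353 after rescaling and 2141 of 10348 with quantile normalization. With rows of a name summed the median was 0.16 and 4 of the 144 genes changed sign, among them TMEM254, which turned to -0.08. Without 1 of the 4 libraries, the median difference of the 144 genes was 0.20 to 0.28, and 4 to 5 genes had a mouse mean under 1 FPKM. C3orf38 lost its call without ferret replicate 2 (0.97) or mouse replicate 2 (0.97). TOMM70 gained one without ferret replicate 1 (1.01) or mouse replicate 1 (1.01), TUBB (1.01), HPRT1 (-1.03) and C11orf74 (-1.10) without ferret replicate 1, and SUPT4H1 (1.01), ZNF462 (1.08) and C11orf74 (-1.003) without mouse replicate 2. The replicate block gave the same 57 calls, 34 higher and 23 lower, beside 4471 of all 10348 genes fitted. The labels share replicate numbers only, and the deviations of same-numbered libraries had a correlation of 0.0098 over 10348 genes. A pseudocount of 0.1 gave 61 calls, beside 5073 of all 10348 genes fitted, and no filter gave 57, beside 4461 of 13517. Among the 135 genes with a shared flanking gene, a subset chosen after seeing the data, 52 were called, beside 4457 of all 10339 genes fitted. An alternative that takes mouse names from reference synonyms was not run, since the tables used here pair none with these symbols. FPKM holds no counts, so values near 1 FPKM are given without an interval.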
